A study of Mus musculus with 5 samples.

Results

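H3K36me3 islands that were continuous in untreated mouse embryonic stem cells (ESCs) but met 2 or more separate islands after L-proline are described here. They are the autosomal islands of the ESC H3K36me3 list that overlap at least 2 islands of the L-proline list by 1 bp or more. The rule picked 2100 of 11971 autosomal ESC islands, which is 17.5% of them. The stretch between neighbouring L-proline islands inside such an ESC island is called a gap, and there were 3085 gaps. The members were selected on the island positions of the 2 H3K36me3 lists, so all H3K36me3 values below are descriptions, and H3K9me3 was the only measure that the rule did not use.

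Each mark was profiled once in each condition by chromatin immunoprecipitation and sequencing. All cells were wild-type TBV2 ESCs of the 129/SvP strain, seeded sparsely on gelatin without feeder cells and grown for 5 days in medium with leukemia inhibitory factor. The ESC group received no L-proline, and the group called L-proline-induced cells (PiCs) received 500 µM L-proline in the same medium, which had no other non-essential amino acids added. One line and 1 library per mark and condition were available, so no difference between conditions has a replicate check and no test was made. Intervals in brackets are exact 95% binomial intervals over islands or gaps and cover counting error only.

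Trimethylation of histone H3 at lysine 36 is laid down by SETD2, which travels with elongating RNA polymerase II, so the mark covers the bodies of transcribed genes and is usually weak at their promoters. It recruits factors that keep transcribed chromatin from starting transcription at internal sites, and it attracts de novo DNA methyltransferases. Trimethylation at lysine 9 is laid down mainly by SETDB1 and the SUV39H enzymes and marks silenced chromatin, above all repeats and endogenous retroviruses in ESCs. The 2 marks usually lie apart. The islands were called with SICER, which joins enriched windows across short empty stretches. A gap is therefore a stretch that no listed PiC island covers. The caller's settings are not given. The closest neighbouring islands lay 1200 bp apart in both H3K36me3 lists and 800 bp apart in both H3K9me3 lists. Shorter empty stretches thus do not appear as gaps.

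The islands of the whole H3K36me3 lists held 0.608 times as many tags in PiCs as in ESCs on the autosomes, with a median of 49.2 tags per kb of island against 71.7. The H3K9me3 lists went the other way, with 2.29 times as many tags in PiC islands as in ESC islands. Tags are read from the whole number deposited with each island and are not scaled to library size. The part of these tag totals in the number of gaps was not tested. Neither list shows how ESC tags were spread inside an island, so ESC signal in the gap itself is not known.

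Splitting mostly meant 1 short gap in an island that otherwise stayed covered. Of the 2100 split islands, 1491 (71.0%) met 2 PiC islands and so had 1 gap, 392 met 3, 131 met 4 and 86 met 5 or more. The split islands spanned 73.4 Mb, of which 83.2% lay under PiC islands, 10.3% in gaps and 6.45% in outer ends that no PiC island covered. Gaps took up a median of 9.02% of an island, with quartiles of 5.17% and 15.6%. In 1141 islands (54.3%) they took under 10% of the length, in 226 (10.8%) at least 25%, and in 23 (1.10%) at least 50%. The highest share was 78.9%.

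**Figure D1:**
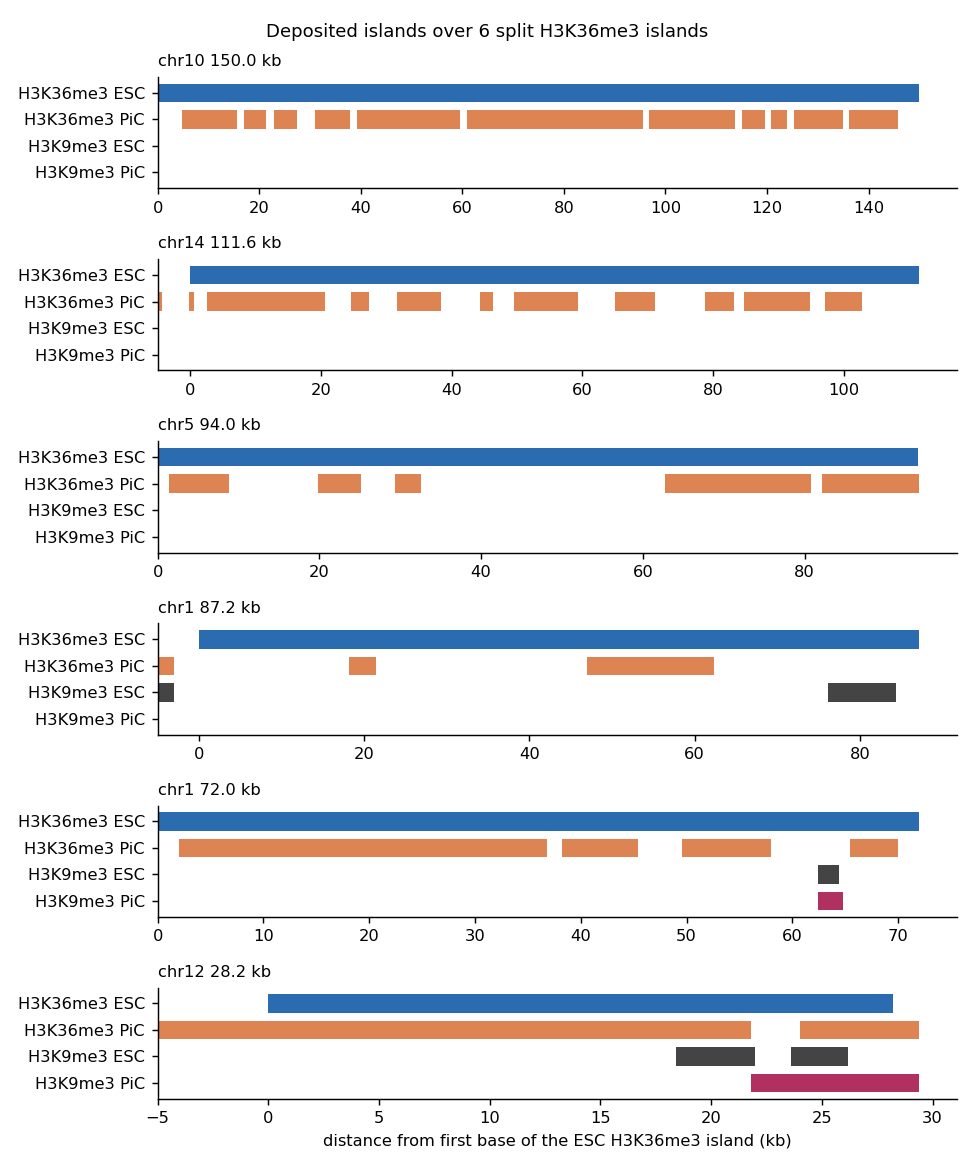
Deposited islands over 6 split H3K36me3 islands, drawn to scale from the first base of the ESC island (horizontal axis, kb), with 1 row for each of the 4 lists. The chromosome 10 island meets 11 PiC islands with gaps of at most 3.6 kb, the chromosome 5 island has a gap of 30.2 kb, and H3K9me3 lies within a gap only in the last 2 islands drawn.

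The 3 widest split islands stayed under PiC islands over most of their extent. The first spanned 220.2 kb on chromosome 1 (120728601 to 120948800) and had 2 gaps, of 1.6 kb (120830801 to 120832400) and 1.4 kb (120862201 to 120863600), so that 1.36% of it lay in gaps. Its H3K36me3 density was 140.7 tags per kb in ESCs and 58.2 in the PiC islands that met it. The second spanned 190.6 kb on chromosome 11 (8326601 to 8517200), with 4 gaps of 1.2 to 3.8 kb that made up 3.88% of it. The third, also on chromosome 11 (119579001 to 119762000, 183.0 kb), had 7 gaps of 1.2 to 2.2 kb, or 6.34% of its length. Densities in ESCs and in the PiC islands were 144.8 and 59.2 tags per kb for the second and 77.6 and 50.7 for the third, unscaled. In all 3, PiC islands still covered over 90% of the ESC island, at 96.5%, 94.8% and 90.6%.

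Islands that met the most PiC islands came in both finely and coarsely broken forms. On chromosome 10 (12115801 to 12265800, 150.0 kb), 11 PiC islands left 10 gaps, the widest of 3.6 kb, and 10.5% of the island lay in gaps. On chromosome 14 (33018201 to 33129800, 111.6 kb), 10 PiC islands left 9 gaps of 1.6 to 7.6 kb that took 32.8% of the length, and PiC islands covered 59.3% of it. This island is an example of many gaps that were also wide. An island on chromosome 6 (108288201 to 108385800, 97.6 kb) met 8 PiC islands with 7 gaps of 1.2 to 4.6 kb, and only 54.7% of it was covered, since 13.3% lay in gaps and the rest in uncovered ends. An island on chromosome 9 (41781001 to 41905400, 124.4 kb) met 8 as well, with 84.7% covered and gaps of 1.2 to 4.0 kb. The chromosome 11 island at 119579001 met 8 too. In all, 4 islands met 8, and among ties those of lower chromosome number and start were named.

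Gap widths were concentrated at the shortest spacing that occurs in the H3K36me3 lists. Since the caller joins windows across short empty stretches, this peak lies where the widths are cut off. No 2 islands of either H3K36me3 list lay closer than 1.2 kb, and 956 gaps (31.0%, interval 29.4 to 32.7) had exactly this width. A further 562 gaps (18.2%) were 1.4 kb wide and 345 (11.2%) 1.6 kb wide. The median was 1.6 kb, the quartiles were 1.2 and 2.4 kb, and 2203 gaps (71.4%) were no wider than 2 kb. The 882 gaps over 2 kb were fewer but held 58.8% of all gap bases. They fell in 728 islands, and the other 1372 split islands (65.3%) had narrow gaps alone. Only 57 gaps (1.85%) exceeded 10 kb.

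**Figure D2:**
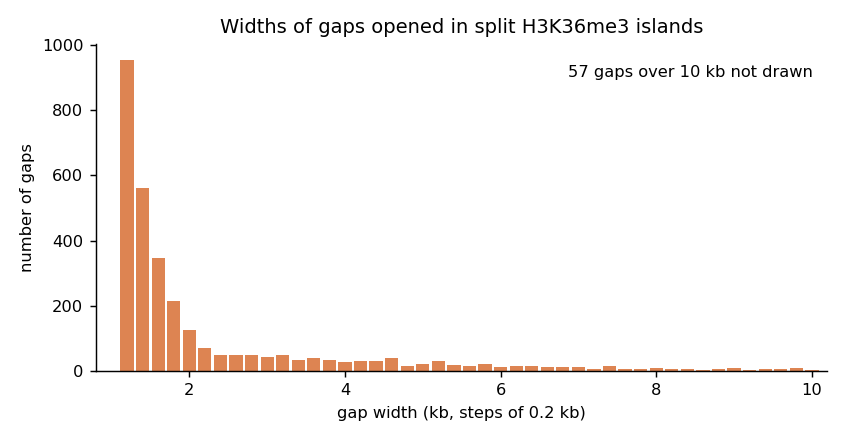
Number of gaps (vertical axis) by gap width in kb (horizontal axis, steps of 0.2 kb, the 57 gaps over 10 kb not drawn). The count is highest at the minimum of 1.2 kb, with 956 gaps, and drops at each step to 2 kb before a long tail.

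Other spaces between neighbouring PiC H3K36me3 islands, up to the same maximum width of 30.2 kb, were wider. Their median was 6.0 kb and 402 of 7981 (5.04%) lay at the minimum of 1.2 kb. A gap must fit inside a single ESC island, and the other spaces need not. Part of this difference in width therefore follows from the rule. The opposite case was rarer. There were 757 PiC islands that met 2 or more ESC islands, 4.63% of the 16363 autosomal PiC islands, and the 821 ESC gaps in them had a median of 1.4 kb. Of these gaps 34.7% lay at the minimum and 22.4% exceeded 2 kb, against 28.6% of the gaps opened in split ESC islands. Such PiC islands had a median width of 22.8 kb and 8.13% of their length in ESC gaps. The shares in the 2 directions are not like for like, because the PiC list holds more and narrower islands. On the autosomes its median width was 8.8 kb over 225.4 Mb, against 12.8 kb over 227.7 Mb in the ESC list.

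The 5 widest single gaps ranged from 21.6 to 30.2 kb. The widest measured 30.2 kb on chromosome 5 (44104201 to 44134400) and was 1 of 4 gaps in an island of 94.0 kb (44071601 to 44165600) with 75.9 tags per kb. Gaps of 11 kb and 4.2 kb lay on its lower-coordinate side and one of 1.4 kb on the other, and PiC islands covered 48.7% of the whole. The next gap spanned 25.6 kb on chromosome 1 (74001201 to 74026800) in an island of 87.2 kb (73979801 to 74067000, 78.2 tags per kb) of which PiC islands covered 21.3%. Another gap on chromosome 1, of 25.2 kb (129906801 to 129932000), took 62.4% of its 40.4 kb island (129898601 to 129939000, 47.2 tags per kb).

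On chromosome 17 a gap of 22.4 kb (32102401 to 32124800) was followed by one of 8.2 kb in the same 73.0 kb island (32097801 to 32170800, 90.1 tags per kb). On chromosome 6 a gap of 21.6 kb (28517001 to 28538600) lay near one end of a 116.6 kb island (28431601 to 28548200, 83.3 tags per kb), with its centre at 82.5% of the island's length. All 5 islands had an ESC density between 47.2 and 90.1 tags per kb, where the lower and upper quartiles of split islands were 52.6 and 93.8, so that 1 of them lay below the lower quartile. None of their gaps touched an H3K9me3 island in either condition.

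Gaps lay more often towards the middle of an island than at its ends. With the island cut into 10 equal parts, the 2 central parts held the centres of 821 gaps (26.6%, interval 25.1 to 28.2), and the 2 outermost parts held 220 (7.13%, 6.25 to 8.10). In islands with a single gap the shares were 30.0% and 6.77%. The rule itself keeps gaps off the edges, because a PiC island must lie on each side of a gap. Along the chromosome, 49.8% of centres fell in the 5 parts of lower coordinate (48.0 to 51.6). The direction of transcription was not used, so positions towards a gene's start or end are not given. Gaps over 2 kb were centred in the outermost parts in 3.63% of cases and narrower ones in 8.53%. The centre of a wider gap cannot lie as close to an edge, so this order is partly set by width itself. The distance from a gap to the nearer ESC edge had a median of 7.8 kb, from 0.2 kb at the least to 102.2 kb.

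**Figure D3:**
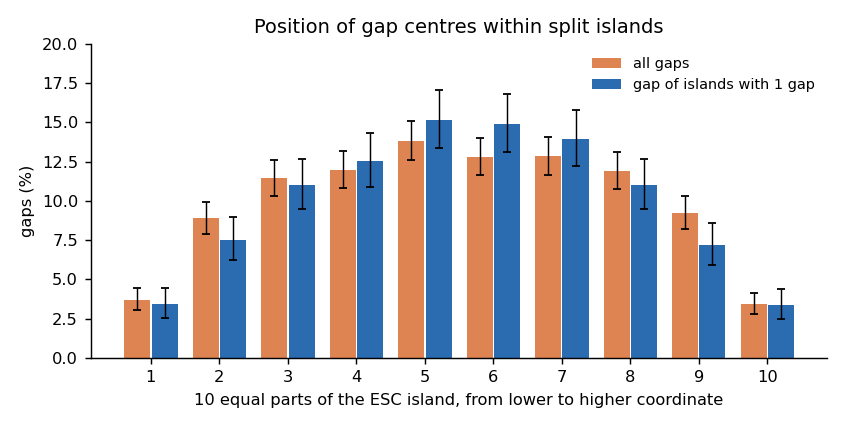
Share of gap centres (vertical axis, percent, exact 95% binomial intervals) in each of 10 equal parts of the ESC island from its lower to its higher coordinate (horizontal axis), for all 3085 gaps and for the 1491 islands with 1 gap. Both sets are highest in the middle parts and lowest, at under 4%, in the first and the last.

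The 2 overlaps beside a single gap were ordered by size, so the larger holds at least an equal share by definition. In islands with 1 gap, the larger of the 2 overlaps made up a median of 70.0% of the covered length (quartiles 59.3% and 81.9%), with medians of 12.4 kb for the larger and 4.8 kb for the smaller. PiC islands lying between 2 neighbouring gaps numbered 985 and had a median width of 7.2 kb, with quartiles of 4.2 and 12.4 kb. In 1332 split islands (63.4%) a PiC island ran past at least 1 ESC edge, and in 414 (19.7%) past both. A PiC island also met another ESC island in 416 cases (19.8%). For the other 1684 split islands the PiC islands met no other ESC island.

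Gaps within 1 island were often of different widths. Of the 609 islands with 2 or more gaps, 282 (46.3%) had a widest gap at least 2 times as wide as the narrowest, and 247 (40.6%) had gaps of at most 2 kb throughout. Islands that met more PiC islands were wider, with a median of 22.8 kb for 2 PiC islands, 37.5 kb for 3, 51.6 kb for 4 and 70.4 kb for 5 or more. The share of length in gaps increased in the same order, at 7.997%, 11.7%, 15.4% and 16.1%. Median ESC density differed less, at 66.7, 70.1, 76.4 and 73.9 tags per kb.

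Split islands were wide islands, of intermediate ESC density when all widths were pooled. Their median width was 28.0 kb (quartiles 17.6 and 45.6 kb) against 11.8 kb for the 8669 ESC islands that met 1 PiC island. The split ones made up 17.5% of the islands but 32.2% of the length under ESC islands. Their median ESC density of 68.7 tags per kb lay below the 81.6 of islands that met 1 PiC island and above the 44.5 of the 1202 that met none. Compared at similar width, the difference from islands that met 1 PiC island was larger in the wide classes. From 20 to 40 kb the medians were 66.8 and 122.4 tags per kb. The share split was 0.427% of islands under 5 kb, 3.45% from 5 to 10 kb, 14.9% from 10 to 20 kb, 30.9% from 20 to 40 kb, 48.8% from 40 to 80 kb and 68.2% of those of 80 kb and over. Wider islands offer more sequence in which a gap can fall. Per Mb of ESC island there were 1.16 gaps in the narrowest class, 11.4 from 10 to 20 kb and 18.3 in the widest. The count per Mb is not free of width either. An island must hold the gap and part of a PiC island on each side, which leaves little room in narrow islands.

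Within each width class from 5 kb up the islands densest in ESC tags were split least. The ESC islands were ranked by tags per kb and divided into 5 equal classes. Among islands of 20 to 40 kb, 47.4% were split in the sparsest class (interval 40.1 to 54.7), 60.1% in the next (55.1 to 65.0), 49.6% in the middle one (45.4 to 53.9), 23.4% in the next (20.3 to 26.8) and 5.53% in the densest (4.03 to 7.37). From 40 to 80 kb the middle class had 81.6% and the densest 19.3%. From 10 to 20 kb these shares were 20.1% and 1.94%. The densest class started at 137.4 tags per kb. Its 199 gaps were also shorter, with 10.6% over 2 kb against 31.5% of the 368 gaps in the sparsest class.

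**Figure D4:**
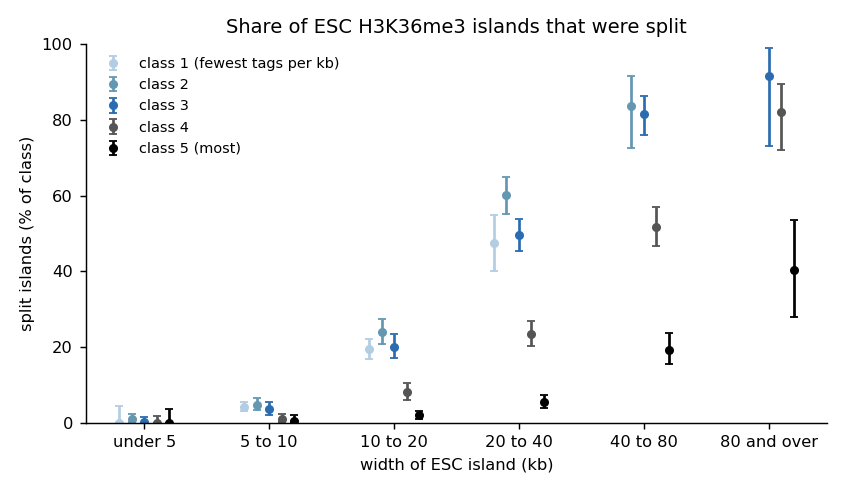
Share of ESC H3K36me3 islands that were split (vertical axis, percent, exact 95% binomial intervals) by width of the ESC island in kb (horizontal axis) and by 5 equal classes of ESC tags per kb (shade); classes under 20 islands are not drawn. In each width class from 10 kb up, the densest class lies lowest.

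The PiC islands that met split ESC islands were sparser than those that met unsplit ones and close to the median of the whole PiC list. They numbered 5096, with a median of 46.2 tags per kb (quartiles 38.1 and 58.0), against 62.3 (44.1 and 89.6) in the 7937 that met unsplit ESC islands alone and 49.2 over all autosomal PiC islands. For ESC islands whose PiC islands met no other ESC island, the tags of those PiC islands were set beside the ESC tags. Both counts are of whole islands and do not cover the same bases. PiC tags past an ESC edge are included, and PiC tags in gaps and uncovered ends are not. The median ratio of PiC to ESC tags was 0.551 for 1684 split islands and 0.633 for 7542 unsplit ones. The order differed between width classes. Split islands had the higher median from 5 to 10 kb (0.899 against 0.708) and from 10 to 20 kb (0.619 against 0.609). They had the lower one from 20 to 40 kb (0.542 against 0.574), from 40 to 80 kb (0.519 against 0.553) and from 80 kb up (0.509 against 0.552). The quartiles overlapped widely, at 0.444 to 0.656 and 0.474 to 0.705 for islands of 20 to 40 kb. The ratios stand beside 0.608 for the whole lists.

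The share of islands that were split ran from 12.4% on chromosome 7 to 22.6% on chromosome 18, with a median of 18.2% over the 19 autosomes. Island widths and densities differed between chromosomes. If each island had the average split share of its width and density class, chromosome 15 would hold 95.5 split islands, and it held 75, a ratio of 0.785. Chromosome 3 had the highest such ratio, 1.29, with 114 split islands against 88.6. Chromosomes 13 and 18 followed with 1.24 and 1.21.

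H3K9me3 was nearly absent from the gaps in both conditions. Of the 3085 gaps, 19 (0.616%, interval 0.371 to 0.960) touched a PiC H3K9me3 island and 15 (0.486%, 0.272 to 0.801) an ESC H3K9me3 island. Both conditions shared 5 of these gaps, 14 were touched in PiCs alone and 10 in ESCs alone. The remaining 3056 gaps (99.1%) carried no H3K9me3 island in either. The intervals of the ESC and PiC shares overlapped, although the PiC list held more and wider H3K9me3 islands. Gaps were mostly far from the mark, with a median distance to the nearest H3K9me3 island of 82.0 kb in ESCs and 84.6 kb in PiCs. An H3K9me3 island lay within 5 kb of 137 gaps (4.44%) in ESCs and of 118 (3.82%) in PiCs. No such distances are given here for other regions, so whether they are particular to the gaps is not known.

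H3K9me3 covered less of the gaps than of the H3K36me3 that remained around them. PiC H3K9me3 islands lay over 20 kb of the 7587 kb in gaps, or 0.264%, against 0.995% of the length kept under PiC H3K36me3 islands and 0.583% of the uncovered outer ends. For ESC H3K9me3 these shares were 0.169%, 1.1985% and 0.685%. Unsplit islands that met 1 PiC island had 1.55% of their length under PiC H3K9me3 and 2.51% under ESC H3K9me3. The gaps were the only one of these classes where the PiC share was above the ESC share, on the strength of 20 kb against 12.8 kb of sequence.

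**Figure D5:**
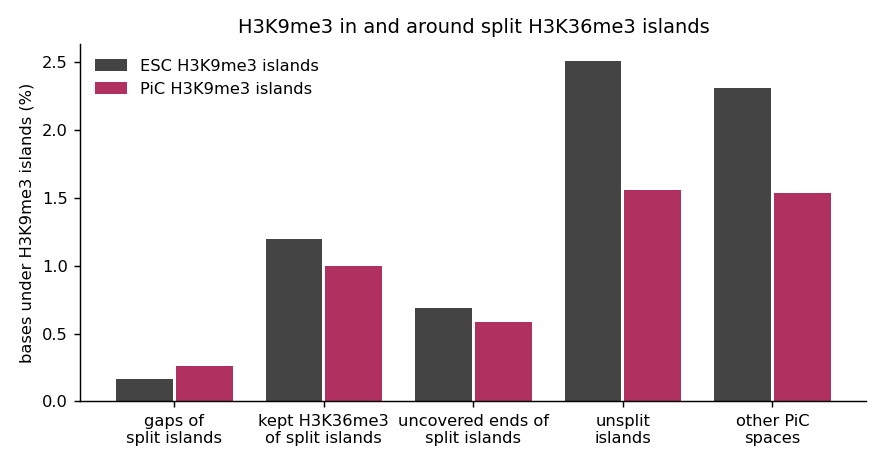
Percent of bases under H3K9me3 islands of each condition (vertical axis) in the gaps, the kept H3K36me3 and the uncovered ends of split islands, in unsplit islands that met 1 PiC island, and in other spaces between neighbouring PiC H3K36me3 islands. The gaps have the lowest coverage in both conditions, 0.169% in ESCs and 0.264% in PiCs.

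Spaces between PiC H3K36me3 islands outside the split islands met H3K9me3 more often than the gaps did. Of the 7981 such spaces, 5.26% touched a PiC H3K9me3 island and 7.61% an ESC one. The same held up to 2 kb and over 2 kb, but the wider class was not matched for width. It held 2711 spaces over 10 kb among 6378, and 57 gaps over 10 kb among 882. Among spaces of up to 2 kb, 2.37% (interval 1.68 to 3.24) touched PiC H3K9me3, against 0.590% of gaps of that width (0.315 to 1.01). Over 2 kb the shares were 5.99% (5.42 to 6.60) and 0.680% (0.250 to 1.47). For ESC H3K9me3 the narrow spaces and gaps had 3.06% and 0.454%. The 110 gaps over 8 kb touched none in either condition, and a count of 0 among 110 allows a share of up to 2.73%.

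Over their whole length, most split islands carried no H3K9me3 either. An ESC H3K9me3 island touched 224 of the split islands (10.7%, interval 9.38 to 12.1), beside 10.4% of all autosomal ESC H3K36me3 islands. A PiC H3K9me3 island touched 185 (8.81%, 7.63 to 10.1), beside 6.94% of all. From 20 to 40 kb, ESC H3K9me3 touched 8.24% of split islands (6.43 to 10.4) and 12.5% of those that met 1 PiC island (10.99 to 14.2), whereas PiC H3K9me3 touched 8.11% (6.32 to 10.2) and 6.14% (5.06 to 7.37). That ESC comparison was the only one among the 5 width classes from 5 kb up, in either condition, where the intervals of split and unsplit islands did not overlap. Of the 211 PiC H3K9me3 islands that met a split island, 20 (9.48%) reached into a gap, and of the 265 ESC ones 18 (6.79%).

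Among the 5 gaps with the most PiC H3K9me3, 3 also held ESC H3K9me3. A gap of 7.4 kb on chromosome 1 (43861401 to 43868800), the third of 3 in a 72.0 kb island, enclosed a small H3K9me3 island in both conditions, of 2.0 kb in ESCs (43865801 to 43867800) and 2.4 kb in PiCs (43865801 to 43868200). They held 21.5 and 27.9 tags per kb, unscaled, where the list medians were 25.6 and 33.3. On chromosome 12 a gap of 2.2 kb (70817201 to 70819400) was covered over its whole length by a 7.6 kb PiC H3K9me3 island (70817201 to 70824800) that began at the gap's first base. In ESCs 2 separate H3K9me3 islands reached 27.3% of that gap.

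The other gap on chromosome 12 (41124801 to 41126800, 2.0 kb) lay in an island of only 5.8 kb (41122801 to 41128600). A PiC H3K9me3 island of 7.8 kb (41121201 to 41129000, 44.0 tags per kb) covered that entire H3K36me3 island, and an ESC H3K9me3 island of 2.8 kb (41122401 to 41125200) covered 20% of the gap. Gaps of 1.6 kb on chromosome 2 (155135201 to 155136800) and chromosome 11 (45919001 to 45920600) were wholly under PiC H3K9me3 islands, of 3.4 kb and 4.0 kb, and touched no ESC one. In all, 7 gaps lay wholly under PiC H3K9me3 and 3 wholly under ESC H3K9me3.

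Gaps with the most ESC H3K9me3 included 2 that had none in PiCs. A 1.8 kb gap on chromosome 5 (124718401 to 124720200) lay wholly under a 5.4 kb ESC H3K9me3 island (124718001 to 124723400), and a 1.2 kb gap on chromosome 2 (135476801 to 135478000) under one of 2.8 kb (135475601 to 135478400). A 1.2 kb gap on chromosome 10 (79197401 to 79198600) was wholly covered in ESCs by an H3K9me3 island of 12.6 kb (79194401 to 79207000, 91.7 tags per kb) and over 16.7% in PiCs by one of 8.2 kb (79198401 to 79206600). This ESC H3K36me3 island of 15.6 kb was thus under both marks over most of its length in untreated cells. A 3.6 kb gap on chromosome 16 (9263201 to 9266800) met 2 H3K9me3 islands in each condition, with 61.1% of the gap covered in ESCs and 16.7% in PiCs. The chromosome 1 gap at 43861401 completed the 5.

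Outside their gaps, several named islands carried H3K9me3 over different shares in the 2 conditions. The widest island, on chromosome 1 at 120728601, was under ESC H3K9me3 over 5.18% of its span and had no PiC H3K9me3. The chromosome 1 island at 73979801, with the gap of 25.6 kb, had 9.40% in ESCs and none in PiCs, and the chromosome 11 island at 119579001 had 1.53% and none. The chromosome 11 island at 8326601 had 2.62% in ESCs and 1.26% in PiCs. The chromosome 9 island at 41781001 had 0.965% in ESCs and 3.54% in PiCs, and the chromosome 17 island at 32097801 had 0.274% and 1.92%. Over all split islands, 119 touched H3K9me3 in both conditions, 105 in ESCs alone, 66 in PiCs alone and 1810 (86.2%) in neither.

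The limits of the rule were set by single windows of 200 bp, the step on which the lists are written. In 23 split islands the smallest overlap was 1 window, among them islands on chromosome 1 (91600201 to 91613000), chromosome 3 (108187401 to 108194400) and chromosome 4 (148302001 to 148315800). Just outside the rule were 20 islands that met 1 PiC island and had a second one adjoining an edge or within 200 bp of it. Those on chromosome 2 (30854601 to 30879600 and 155917801 to 155935200) and chromosome 5 (151429801 to 151466200) had the second PiC island 0 bp from the edge.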

How the data were processed

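Islands of H3K9me3 and H3K36me3 were called with SICER on build mm9, per the submitters' processing notes. Its version and thresholds, the aligner and any use of the input are, in the sources used here, not given, and the input library was not analysed. Each deposited list gives 1 whole number per island, which was read as an unscaled tag count. Its sums over islands were 26055650 (ESC) and 15787192 (PiC) for H3K36me3 and 1511058 and 3514489 for H3K9me3, and library depth is unknown. Positions are 1-based on mm9, and no annotation or sequence of that build was used here, so regions carry no gene names.

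Overlaps over 19 autosomes were computed with pandas 2.3.3, scipy 1.17.1 and numpy 2.4.6 under Python 3.11.15, and drawn with matplotlib 3.10.9. On simulated lists, 200 planted splits were found with exact edges and 0 elsewhere. Members, width classes and alternatives were chosen with earlier results of these data known. Named regions are the 3 widest split islands, the 5 meeting the most PiC islands, the 5 with the widest gap, and the 5 gaps with the most H3K9me3 of each condition. Alternatives concerned joining, overlap, list length, chromosomes and H3K9me3 stringency. One, limited to islands whose PiC islands meet no other ESC island, was added after seeing the data.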

Additional observations from a re-analysis of the deposited data

How the results depend on the processing

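No paired analysis was possible because only 1 library represents each group, and none could be left out. Gap counts depended most on the joining of PiC islands. Joined over up to 2 kb, split islands fell to 728 (6.08%) and gaps to 882, with a median width of 4.2 kb, 15.2% of split length in gaps, and 0.197% (PiC) and 0.125% (ESC) of gap bases under H3K9me3. Joined over up to 5 kb, these were 287 (2.40%), 314, 7.0 kb, 19.98%, 0.0935% and 0.0857%. In that setting 0.318% of gaps (interval 0.00806 to 1.76) touched PiC and 0.637% (0.0772 to 2.28) ESC H3K9me3. The main values were 0.616% and 0.486%. The order differed, but with 314 gaps the intervals overlapped widely, so the order is not resolved. Joining removes narrow gaps by construction. With the PiC list cut to the size of the ESC list, 11.8% of islands were split, with 1875 gaps over 9.38% of their length, and ESC H3K9me3 touched 0.267% of gaps and 0.0803% of gap bases. With the 50% of PiC H3K36me3 islands that held the most tags, 771 islands (6.44%) were split, with 915 gaps over 7.56% of the length, and ESC H3K9me3 touched 0.219% of gaps and 0.0405% of bases. In these 2 settings the cause was not tested beyond the smaller number of PiC islands. The share of length in gaps was 10.1% with an overlap of 1 kb, 10.5% with all chromosomes and 10.2% for islands whose PiC islands meet no other ESC island, where 14.1% were split. With the 50% of H3K9me3 islands that held the most tags, 0.156% (PiC) and 0.113% (ESC) of gap bases were covered. At least 50% of the gap was covered in 0.324% (PiC) and 0.194% (ESC) of gaps. Without chromosome 15 all 9 values stayed within the main ranges. For the numbers of islands and gaps these were fixed limits, such as 1400 to 3150 split islands. Such limits are too wide to be left by the loss of 1 chromosome. For shares of bases the intervals were taken over windows of 200 bp. In each of these settings under 1% of gaps touched H3K9me3 of either condition.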
